A study of Mus musculus with 16 samples.

Results

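The prolactin receptor and 8 genes of the signaling chain below it (*Prlr*, *Jak1*, *Jak2*, *Stat3*, *Stat5a*, *Stat5b*, *Socs2*, *Socs3* and *Cish*) were followed through the cell types of the hypothalamus with the preoptic area. They are 9 of 27272 genes with a transcript in these data, taken by symbol and read in 16 of 16 libraries. Their inclusion was not blind to the data: *Socs2* was picked because its level was higher in neurons of *Esr1* cKO mice, so genotype differences in neurons are described below without a test.

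The libraries came from Drop-seq, a droplet method that counts the 3′ ends of transcripts by molecular identifiers (UMIs), with 1 female mouse of mixed CD-1;129P2 background per library. Wild-type mice were given oil (3 mice) or tamoxifen (5 mice), and *Esr1* cKO mice were given oil (4 mice) or tamoxifen (4 mice). Tamoxifen, a drug that binds estrogen receptors, was injected under the skin at 0.1 mg/kg daily in corn oil with ethanol. The other mice were given corn oil with ethanol without the drug (called oil). The paper states a higher ethanol content for this vehicle than for the tamoxifen solution. Both were given for 28 injections from 8 to 10 weeks of age, with tissue taken 2 h after the last one. *Esr1* cKO mice carried floxed *Esr1* alleles and the *Nkx2-1*-Cre transgene, so the deletion is limited to cells with a history of *Nkx2-1* expression, and wild-type mice were Cre-negative littermates. *Esr1* itself, the targeted gene, stood at 64.3 ± 13.6 UMIs per 1000000 UMIs of the type in a library (CPM) in neurons of wild-type mice and 50.1 ± 17.7 in *Esr1* cKO neurons (SD, n = 8 mice each, ranges 44.4–86.7 and 17.2–74.6). A 3′ tag need not lie in the deleted part of the gene, so these overlapping values do not check the genotype.

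Prolactin, made mainly by the pituitary, binds its receptor on the cell surface, and the bound receptor activates the attached kinase JAK2. JAK2 phosphorylates the STAT factors, chiefly STAT5A and STAT5B and also STAT3, which pair, enter the nucleus and switch on target genes. Among these targets are the SOCS proteins and CISH, which act back on the receptor and kinase and damp the signal. In the hypothalamus prolactin is known for feedback on dopamine neurons, for effects on kisspeptin neurons and for maternal behavior, and STAT3 is also used by leptin, through JAK2, and by the interleukin 6 family of cytokines, through JAK1 and JAK2.

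STAT dimers are known to bind the spaced palindrome TTCNNNGAA, so the promoter windows of the 9 genes, from 250 bases before to 50 after a RefSeq gene start (GRCm38.p6), were searched for these letters, which read the same on both strands. The letters stood in 3 of the 8 genes with a window, in 2582 of all 27025 genes with a window (9.55%) and in 3 of 46 of the other pathway genes (6.52%). The 3 stretches that hold them are printed here on the gene's strand, with the palindrome in capitals. *Socs2* has no window in the table.
Prlr promoter (chr15:10223786-10223814, plus strand): gcaaaatgagTTCTAGGAAtaagggatat
Socs3 promoter (chr11:117969502-117969530, minus strand): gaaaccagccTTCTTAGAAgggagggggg
Cish promoter (chr9:107296654-107296683, plus strand): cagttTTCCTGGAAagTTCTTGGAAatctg

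*Cish* carried 2 copies, which 150 of 32851 windows (0.457%) did, beginning at and 11 bases after the annotated start. In *Prlr* the palindrome lay 110 bases before the start of 1 of its 3 windows, and in *Socs3* 154 bases before the start. No match was present in the windows of *Jak1*, *Jak2*, *Stat3*, *Stat5a* or *Stat5b*. A match is a description of letters and was not tested for binding.

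After filtering, 55675 cells remained, from 1746 to 5568 per library with a median of 563.0 to 819.0 UMIs per cell. Of these, 1717 cells had a barcode that occurred in more than 1 library, 1473 of them in 4 libraries (wild-type tamoxifen replicates 4 and 5, *Esr1* cKO oil replicate 4 and *Esr1* cKO tamoxifen replicate 4). Copies of 1 barcode in 2 of these libraries had alike profiles (median r = 0.637 across genes, against 0.166 for different barcodes), so all 1717 cells were left out of the sums, and 53958 stayed. Replicate 3 of the wild-type oil group and replicate 3 of the *Esr1* cKO tamoxifen group were deposited with at least 100 genes per barcode rather than 20 and listed the fewest genes. Cells fell into 9 types by markers, from 13274 astrocytes to 946 fibroblasts, each with its own marker list highest there (10 of 10 genes in 7 types, 8 of the 9 listed genes in polydendrocytes, which are oligodendrocyte precursors, and 9 of 9 in ependymal cells). Endothelial cells also held a finer cluster of 1520 cells led by *Gkn3*, with 4 mural and 1 endothelial marker among its 10 leading genes, and 394 cells led by *Hba-a2*, with 5 red blood cell genes there. The 5 red blood cell genes summed to a median of 27577 CPM in endothelial cells. A cluster with 4 tanycyte genes there (1227 cells) lay in the ependymal class. A smaller cluster in microglia, led by *S100a8* (776 cells), had 1 perivascular macrophage gene there. Another in neurons, led by *Crym* (290 cells), had 1 tanycyte gene there. These 5 clusters were left out in an alternative chosen after the data were seen, and its values are given where they matter. The 9 genes and their pathway were kept out of the clustering. UMIs were then summed per mouse and type. In such sums, fewer expressing cells and less RNA per cell cannot be told apart.

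To ask where in this tissue each gene is expressed, each type was compared with all other cells of the same library. Of the 9 genes, 7 passed the filter on low counts, in all 9 types, which gave 63 tests of the 81 possible. In 27 the gene was higher and in 26 lower (edgeR, adjusted p under 0.05). The 27 include *Socs2* in neurons, a call that uses the values it was picked on. Cell types differ in most of what they express: of all gene and type pairs, 29.4% were called higher and 38.4% lower, so the counts themselves say little about these genes. *Stat5a* and *Cish* passed in none. The plot of levels by type shows every mouse.

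**Figure D1:**
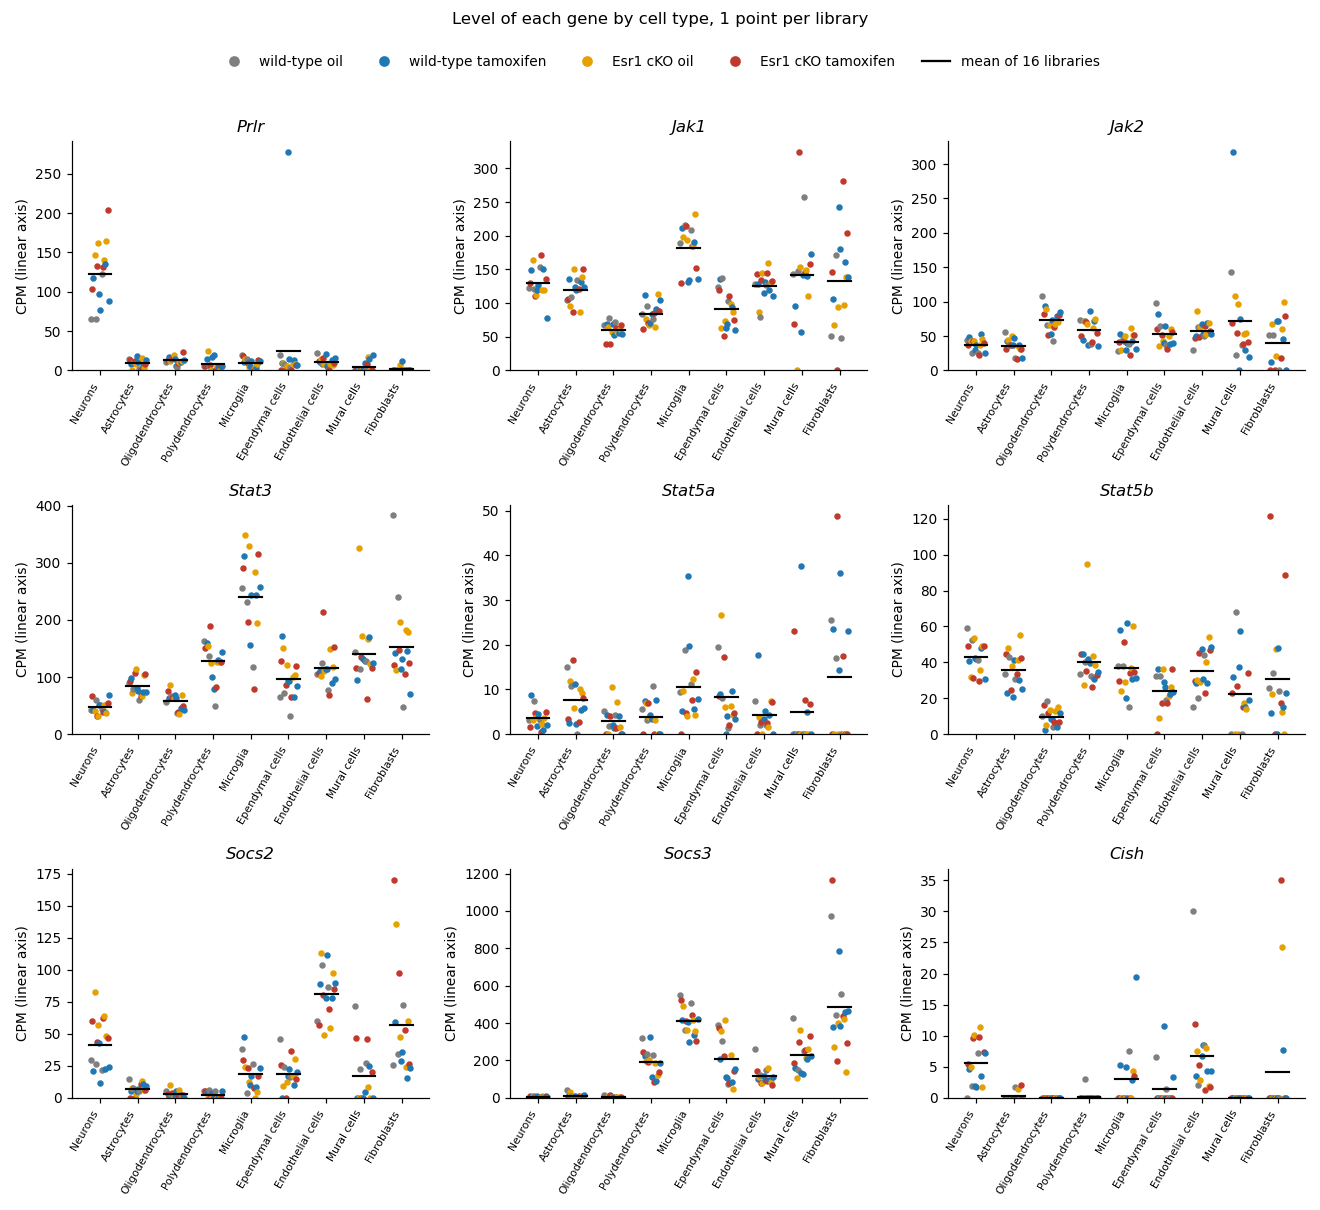
CPM of each of the 9 genes (linear axes, each panel with its own scale) in 9 cell types, with 1 point per library coloured by group and a bar at the mean of 16 libraries. *Prlr* stands high in neurons (65.5–204 CPM) and in 1 ependymal library (278 CPM), *Socs2* in endothelial cells and some fibroblast libraries, and *Socs3* in microglia and fibroblasts.

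*Prlr*, the receptor, was mainly a neuronal transcript here. It ranged from 65.5 to 204 CPM in neurons with a median of 127 over 16 libraries (mean 122 ± 38.4, SD), and from 1.79 to 37.2 CPM in all other cells together. Neurons were above the other cells in 16 of 16 mice, and the ranges did not overlap. The difference was 3.48 ± 0.21 on the log2 scale (SE, edgeR, adjusted p = 9.27e-15), and neurons held 84.5% of the 2626 *Prlr* UMIs against 31.5% of all UMIs.

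In the 8 other types *Prlr* was lower than in the remaining cells, with log2 differences of −2.74 to −1.42 outside fibroblasts. The remaining cells included neurons each time, so these 8 calls restate the neuronal excess and do not compare the 8 types with each other. Their mean levels ran from 12.7 ± 4.80 CPM in oligodendrocytes down to 1.17 ± 3.34 in fibroblasts, where 2 UMIs were counted in all and no fold is given. Barcodes with too few genes to be kept as cells, which mostly carry free RNA, held *Prlr* at 37.8 ± 9.93 CPM (n = 16), above the mean of every type except neurons. The mean levels outside neurons were therefore at or below this background and are not read as expression. Nor are they read as its absence, since a low mean can hide a few cells with a high level. The 10 ependymal cells rich in choroid plexus genes described next, at 914 CPM, are such a case. The same barcodes held *Jak1* at 69.7, *Jak2* at 27.7, *Stat3* at 47.3 and *Stat5b* at 21.8 CPM. They held *Socs2* at 14.7, *Socs3* at 23.8, *Stat5a* at 3.50 and *Cish* at 1.03 CPM. Type means of these genes at or below these values are likewise read neither as expression nor as its absence.

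Ependymal cells, which line the ventricle, stood second in the mean (24.4 ± 67.7 CPM), and that mean belonged to 1 mouse. Wild-type tamoxifen replicate 2 had 278 CPM, whereas the other 15 libraries lay between 0 and 19.6 (7.51 ± 5.47). In that library 10 cells with at least 10% of their UMIs from 13 choroid plexus genes held 46 of the 84 ependymal *Prlr* UMIs, or 914 CPM. The other 3043 ependymal cells of all mice held 38 (7.88 CPM). The choroid list summed to 120360 CPM in that library, and no other library had such a cell. The call that *Prlr* was lower in ependymal cells than in other cells was lost in the 8 wild-type libraries alone (log2 −0.45). In the order of the types, neurons were above ependymal cells in 15 of 16 mice by 97.8 CPM, more than the SD of that difference (84.3), and no later neighbours differed by more than this measure of spread.

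The genes whose levels most resembled *Prlr* over the 9 types were *Htr2c* and *3110047P20Rik* (r = 0.978 each) and *Chrnb4* (r = 0.976), with r from log2(CPM + 10) of 9 type means that share their 16 libraries. With log2(CPM + 1) *Abcc8* came first (r = 0.964), *3110047P20Rik* second and *Chrnb4* at rank 4, and *Htr2c* was not among the 10 nearest. *Htr2c* encodes the serotonin 2C receptor and *Chrnb4* a nicotinic receptor subunit.

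The ligand was nearly absent, as is known for a pituitary hormone: *Prl* had 20 UMIs in 11 libraries and *Gh*, growth hormone, whose receptor uses the same chain, had 5. Of the 19 other cytokine receptors in the pathway list, 16 were tested in neurons and none was higher, whereas 14 were lower (*Lifr*, the receptor for leukemia inhibitory factor, at 14.6 ± 3.17 CPM and a log2 difference of −2.33 ± 0.10, adjusted p = 2.41e-18). *Ghr* was among the lower ones (36.4 ± 10.9 CPM, log2 −0.68 ± 0.09, adjusted p = 1.29e-07). The leptin receptor *Lepr* did not pass the test (7.60 ± 3.72 CPM, log2 −0.11 ± 0.16). These 3 receptors were picked as examples after their values were seen. Over all genes, 5384 of 13056 were lower in neurons. In endothelial cells 13 of 17 of these receptors were higher (4468 of 12420 over all genes), in microglia 10 of 14 (3483 of 11620).

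*Jak1*, a kinase shared by many cytokine receptors, had UMIs in every type with a modest spread. Its mean in oligodendrocytes was below the 69.7 CPM of the barcodes with too few genes. Its level was highest in microglia (130 to 232 CPM, median 190.0, mean 182 ± 34.0) and lowest in oligodendrocytes (39.3 to 77.6, median 62.1, mean 60.3 ± 10.6), and these ranges did not overlap. Microglia were above the other cells in 16 of 16 mice (log2 1.07 ± 0.08, adjusted p = 5.48e-16) and oligodendrocytes below them in 16 of 16 (−0.65 ± 0.07, adjusted p = 4.38e-10). Neurons stood at 130.0 ± 23.2 CPM, slightly above the rest (log2 0.19 ± 0.07, adjusted p = 0.0101), but not in the 8 wild-type or the 7 oil libraries alone. Among the types in between, no neighbours in the order differed beyond their spread.

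*Jak2*, the kinase attached to the prolactin receptor, ran the other way in CPM, which is a share of the UMIs and not a level per cell. Oligodendrocytes carried it at 42.1 to 108 CPM (median 72.4, mean 73.2 ± 16.9), above the other cells in all 16 mice (log2 1.12 ± 0.09, adjusted p = 4.89e-14). Neurons carried it at 22.2 to 52.4 CPM (median 39.0, mean 37.5 ± 9.36), below the other cells in all 16 mice (−0.61 ± 0.07, adjusted p = 1.65e-08). Neurons, with most of the *Prlr*, stood next to last in the order of *Jak2* levels, with astrocytes last (35.5 ± 11.3 CPM) and no difference between them beyond the spread. Of the other kinases, *Jak3* was higher in endothelial cells (14.6 ± 6.51 CPM, log2 2.45 ± 0.20, adjusted p = 2.57e-12) and *Tyk2* in microglia (29.0 ± 15.5 CPM, log2 1.59 ± 0.20, adjusted p = 1.07e-09).

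*Stat5b*, one of the paired STAT5 factors, was similar in most types and scarce in oligodendrocytes. Neurons had 29.7 to 58.9 CPM (median 42.2, mean 42.9 ± 9.06) and were above the other cells in 15 of 16 mice (log2 0.51 ± 0.08, adjusted p = 2.27e-06). Oligodendrocytes had 2.10 to 18.5 CPM (median 9.32, mean 9.73 ± 4.80), below the other cells in all 16 (−1.53 ± 0.15, adjusted p = 2.64e-11). The calls in astrocytes, endothelial and ependymal cells were lost when single mice were left out, and the endothelial one also without the *Gkn3*- and *Hba-a2*-led clusters (log2 0.38, adjusted p = 0.0583).

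*Stat5a* was scarce everywhere, with 273 UMIs in all, from 2.98 ± 2.93 CPM in oligodendrocytes to 12.9 ± 15.5 in fibroblasts. No neighbours in its order differed beyond their spread. *Stat5a* and *Stat5b* lie 8626 bases apart on chromosome 11 and are near copies, and the last 72 bases of *Stat5a* overlap *Stat3* on the other strand, so the split of reads among the 3 genes is uncertain (GENCODE vM21, GRCm38).

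*Stat3*, which serves the interleukin 6 family, had its highest mean in microglia. Fibroblasts came next (153 CPM), and these 2 types did not differ beyond their spread. Microglia had 79.4 to 349 CPM (median 250, mean 241 ± 76.4), above the other cells in all 16 mice (log2 1.95 ± 0.09, adjusted p = 4.20e-24). Neurons had 31.2 to 68.2 CPM (median 43.5, mean 46.6 ± 11.4), below them in all 16 (−1.26 ± 0.11, adjusted p = 2.34e-11). *Stat3* was also higher in fibroblasts, endothelial cells, mural cells and polydendrocytes (log2 0.45 to 0.82). The mural difference was −0.05 in cells with a mitochondrial share under 5%, and the call was also lost with DESeq2 and with its size factors in edgeR. Of the other STAT factors, *Stat2*, which serves interferons, was higher in endothelial cells (log2 1.77 ± 0.08), and *Stat6*, which serves interleukin 4, was lower in oligodendrocytes (log2 −3.30 ± 0.31).

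*Socs2*, a suppressor of growth hormone and prolactin signaling, had its highest mean in endothelial cells among the 9 types. Fibroblasts came next (mean 56.8 CPM). Endothelial cells were above them in 13 of 16 mice by 24.6 CPM, less than the SD of that difference (47.4). Endothelial cells had 49.1 to 113 CPM (median 82.6, mean 81.3 ± 19.7), above the other cells in all 16 mice with no overlap (log2 2.18 ± 0.17, adjusted p = 6.66e-13). Without the *Gkn3*- and *Hba-a2*-led clusters, which had 64.2 and 64.0 CPM with UMIs pooled over mice, the level was 98.4 ± 31.1 CPM and the difference 2.47 ± 0.18. Mural cells, which wrap the vessel, had 17.1 ± 21.8 CPM and were below the other cells (log2 −0.83 ± 0.30, adjusted p = 0.0116), a call lost without those clusters (−0.63, adjusted p = 0.0671). Polydendrocytes, oligodendrocytes and astrocytes were the lowest, at 2.23 ± 2.67, 2.90 ± 2.63 and 7.03 ± 4.16 CPM. In neurons the level was 11.8 to 82.7 CPM (median 42.9, mean 41.5 ± 20.1), above the other cells in 12 of 16 mice (log2 0.65 ± 0.18, adjusted p = 0.00239). This neuronal excess was absent in the 8 wild-type libraries alone (−0.11, adjusted p = 0.658). *Socs2* was picked for its level in *Esr1* cKO neurons, which are among these values, so the call in neurons is not read as a result. The nearest genes in pattern were *Efnb2*, an ephrin of arterial endothelium (r = 0.939), *Gm9847* (0.933) and *Wee1*, a cell cycle kinase (0.916).

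*Socs3*, induced by STAT3 and a brake on leptin and interleukin 6 signaling, spanned the widest range of the 9. Microglia had 300 to 549 CPM (median 413, mean 413 ± 75.4), above the other cells in all 16 mice (log2 3.03 ± 0.10, adjusted p = 2.02e-31). Fibroblasts reached 139 to 1168 CPM (median 432, mean 486 ± 274, log2 2.53 ± 0.13, adjusted p = 9.13e-46), and these 2 types did not differ beyond their spread. Neurons had 0 to 10.4 CPM (median 5.90, mean 5.89 ± 2.61, log2 −4.43 ± 0.12, adjusted p = 8.46e-23). Oligodendrocytes (4.65 ± 5.20) and astrocytes (11.9 ± 10.7) were as low, with the gap from these 3 types up to endothelial cells (117 ± 47.0) present in 16 of 16 mice. Without the *Gkn3*-led cluster (163 CPM pooled) and the *Hba-a2*-led one (42.7 CPM), endothelial cells had 90.4 ± 52.8 CPM and stood less far above the other cells (log2 0.31, against 0.65 with both). The call that *Socs3* was higher in ependymal cells (1.16 ± 0.15) turned to lower without the cluster led by tanycyte genes (−0.57 ± 0.16, adjusted p = 0.00173).

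The genes nearest to *Socs3* in pattern were *Egr1* (r = 0.968), *Ier2* (0.965) and *Junb* (0.958), which are immediate early genes that many cells switch on within minutes of a stimulus. A list of 13 such genes, *Egr1*, *Ier2* and *Junb* among them, is known to rise when tissue is dissociated. Its summed level had a median of 582 CPM in astrocytes, 1122 in oligodendrocytes and 1608 in neurons, against 21678 in microglia and 18092 in fibroblasts. Among the types with high levels the order of the types was not that of *Socs3*. Endothelial cells had a median of 14785 CPM of the list with a *Socs3* mean of 117, and polydendrocytes 10329 with a mean of 193. Between libraries of 1 type the picture was mixed. In fibroblasts the library with most of the list (42362 CPM) had *Socs3* at 1168, and that with least (11192) had 195. In endothelial cells the library with most (18222 CPM) had *Socs3* at 80.9, and that with least (11360) had 112. All 13 listed genes were detected in every type. The part of dissociation in the *Socs3* levels was not tested.

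**Figure D2:**
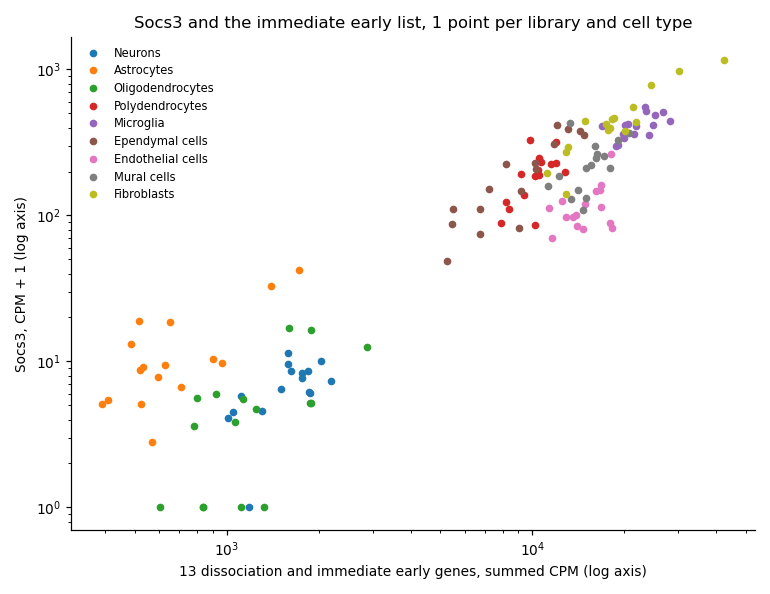
*Socs3* (CPM + 1, log axis) against the summed CPM of 13 dissociation and immediate early genes (log axis), with 1 point per library and cell type. Neurons, astrocytes and oligodendrocytes form the low group (*Socs3* 0–41.1 CPM) and the 6 other types the high group (47.7–1168 CPM).

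*Cish*, a STAT5 target, was rare, with 176 UMIs of which 106 (60.2%) lay in neurons and 44 in endothelial cells. Neurons had 0 to 11.4 CPM (median 5.21, mean 5.55 ± 3.56) and endothelial cells 1.22 to 30.05 (median 4.87, mean 6.78 ± 6.92). None was counted in oligodendrocytes (0 of 8893 cells, which allows a share of up to 0.0337%) or mural cells (0 of 2301, up to 0.130%). These limits are for cells with a UMI, not for cells that express the gene. Nearest in pattern were *Tmppe* (r = 0.971), *Gm9844* (0.944) and *Lrba* (0.941).

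Of the other inhibitors and phosphatases in the pathway list, 13 of 14 were tested. The phosphatase *Ptpn6* was higher in microglia (191 ± 39.6 CPM, log2 7.33 ± 0.15, adjusted p = 5.70e-40), as were *Ptpn1* (log2 2.47 ± 0.10) and *Sh2b3* (log2 2.31 ± 0.15). In neurons 4 were higher, 7 lower and 2 not called. The 4 higher ones, named after their values were seen, were *Socs5* (log2 0.75 ± 0.07), *Socs7* (0.52 ± 0.07), *Pias2* (0.25 ± 0.07) and *Ptpn2* (0.21 ± 0.07). Of 9 STAT-responsive genes tested in microglia 7 were higher, among them *Myc* (log2 4.95 ± 0.15) and *Pim1* (3.64 ± 0.16), and in neurons none was higher and 8 were lower. Most genes differ by type, with 3483 of 11620 higher in microglia and 5384 of 13056 lower in neurons.

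The cytokine oncostatin M (*Osm*), which signals through STAT3, had 442 of its 460 UMIs in microglia (116 ± 30.1 CPM, log2 8.51 ± 0.24, adjusted p = 1.40e-33). The receptor *Il10ra* was likewise microglial (317 ± 37.8 CPM, log2 7.79 ± 0.13). *Il2rg* was higher in endothelial cells (log2 5.25 ± 0.22), and *Il10rb* was lower in oligodendrocytes (−4.53 ± 0.23). Over all 61 pathway genes, 43 were tested in neurons with 4 higher and 34 lower (median log2 −1.14), against 27 higher and 5 lower of 41 in microglia (median 1.35). Over all genes, 5255 of 13056 were higher and 5384 lower in neurons (median log2 −0.0005), and 3483 of 11620 were higher and 5059 lower in microglia (median −0.20).

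In single cells a *Prlr* UMI was present in 12.7% of 8798 neurons (exact Clopper-Pearson 95% interval 12.01–13.41%, median 1513.5 UMIs per cell) and in 0.520% of astrocytes (0.405–0.657%, median 480.0), which serve as the background. Thinned to 500 UMIs, the shares were 5.03% and 0.469%. *Socs3* was seen in 20.9% of microglia and 29.7% of fibroblasts (16.9% and 19.8% thinned) against 0.281% of neurons thinned, and *Socs2* in 8.37% of endothelial cells (3.81% thinned). These intervals cover counting error only.

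Neurons were then clustered again, without the 9 genes and their pathway, into 25 clusters, each called here by its leading gene. In those led by *Apoe*, *Ctss* and *Hba-a2* the leading gene is a transcript of another cell type, and *Crym* is also on the tanycyte list. Each cluster was compared with all other neurons of the same mouse where at least 3 neurons were present. Of 120 tests, 11 were higher and 22 lower, against 6.09% higher and 16% lower over all genes and clusters. These include 3 higher and 2 lower calls of *Socs2*, which use the values it was picked on. *Socs3*, *Stat5a* and *Cish* passed the filter in none.

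*Prlr* was called higher in 2 clusters, those led by *Tac2* and *Gal*, though other clusters carried it too. *Tac2* encodes neurokinin B and *Gal* the neuropeptide galanin. The *Tac2*-led cluster (100 neurons in 12 mice) had 297 to 987 CPM per mouse (median 669, mean 631 ± 229) against 117 ± 28.4 in their other neurons, higher in 12 of 12 without overlap (log2 2.25 ± 0.18, adjusted p = 7.23e-34). The *Gal*-led cluster (649 neurons) had 0 to 571 CPM (median 299, mean 297 ± 141, 16 mice) against 96.2 ± 26.3, higher in 15 of 16 (1.62 ± 0.09, adjusted p = 1.73e-22).

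*Prlr* was lower in 15 clusters. None was counted in the *Vip*-led cluster (64 neurons) or the *B230323A14Rik*-led one (88 neurons), and the *Vipr2*-, *Foxb1*-, *Crym*- and *Oxt*-led clusters had 11.2 to 17.9 CPM with UMIs pooled over mice. *Vip* and *Vipr2*, vasoactive intestinal peptide and its receptor, are known in the suprachiasmatic nucleus. Of the 15 calls, the *Gm10800*-led one was lost with wild-type mice alone and without the libraries of higher gene minimum, and the *Shox2*-, *Ndnf*-, *Hdc*- and *Pomc*-led ones with wild-type mice alone (−0.06 in the last). The 8 clusters that were not called included the *Pmch*-led one (218 CPM pooled, 41 UMIs) and the *Hcrt*-led one (128 CPM). The *Meis2*-led cluster was not called either. It had 126 CPM pooled in wild-type neurons (148 UMIs) and 161 in *Esr1* cKO neurons (262 UMIs).

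*Socs2* was likewise higher in the *Tac2*-led cluster, at 37.1 to 316 CPM per mouse (median 184, mean 183 ± 85.8) against 42.5 ± 18.0 in other neurons (log2 1.95 ± 0.27, adjusted p = 3.07e-11, 12 of 12 mice). With wild-type mice alone the difference was 1.66 (adjusted p = 0.142). The *Crym*-led cluster had 0 to 247 CPM (median 119, mean 125 ± 76.5, 11 mice, log2 1.30 ± 0.26, adjusted p = 9.63e-06), a cluster with hardly any *Prlr* (15.7 CPM pooled). In the *Lrrtm4*-led cluster *Socs2* was higher too (log2 0.61 ± 0.23), and it was lower in the *Oxt*-led one. *Socs2* was picked for its level in *Esr1* cKO neurons, which are among these values, so its cluster calls are not read as results.

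*Stat3* was highest in the *Agrp*-led cluster (54 neurons in 8 mice), which carry the feeding peptide AgRP and are known targets of leptin. It had 57.9 to 449 CPM there (median 217, mean 215 ± 123) against 46.4 ± 9.47 (log2 1.77 ± 0.35, adjusted p = 4.40e-05), higher in 8 of 8. *Agrp*-led neurons had 2 *Prlr* UMIs in all. *Stat3* was also higher in the *Pomc*-led cluster (0.60 ± 0.15, adjusted p = 0.00165), a call lost with wild-type mice alone (0.44, adjusted p = 0.172). It was lower in the *Meis2*-led cluster (−1.01 ± 0.20, adjusted p = 8.61e-05).

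The *Lrrtm4*-led cluster (1007 neurons with a median of 773.0 UMIs) stood apart for the kinases and *Stat5b*. It had no cell in either library deposited with the higher gene minimum. *Stat5b* was 88.0 ± 27.8 against 40.5 ± 8.19 CPM there, higher in 14 of 14 mice (log2 1.20 ± 0.19, adjusted p = 2.93e-08). *Jak2* was 82.0 ± 42.1 against 36.5 ± 8.08 (1.21 ± 0.21, adjusted p = 2.54e-07), and *Jak1* was lower (69.4 ± 23.7 against 129 ± 21.3, −0.81 ± 0.18, adjusted p = 4.51e-05). Outside it, *Jak2* was higher in the *Vipr2*-led cluster (0.80 ± 0.23, adjusted p = 0.00232), and *Jak1* was lower in the *Pmch*- and *Ndnf*-led ones, the former not called with wild-type mice alone (−1.28, adjusted p = 0.0622).

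To describe the genotype difference that brought *Socs2* into view, its level in neurons was listed for every mouse. Wild-type mice given oil had 29.5, 26.3 and 21.7 CPM, and those given tamoxifen 20.6, 42.6, 11.8, 22.2 and 23.8. *Esr1* cKO mice given oil had 82.7, 57.2, 64.2 and 48.5 CPM, and those given tamoxifen 59.9, 43.3, 62.6 and 46.5. Every *Esr1* cKO mouse lay above every wild-type mouse, with 43.3 against 42.6 CPM at the boundary. The means were 58.1 ± 12.6 and 24.8 ± 8.81 CPM (SD, n = 8 each), a log2 difference of 1.28 ± 0.21. Of 12507 genes with at least 100 UMIs in neurons, 2 (0.016%) were ordered this way. Since *Socs2* was chosen on this contrast, nothing is read from that.

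*Prlr* and *Cish* had higher means in *Esr1* cKO neurons, with overlap. *Prlr* was 65.5, 65.9 and 123 CPM in wild-type mice given oil and 117, 96.5, 77.3, 135 and 88.8 in those given tamoxifen. In *Esr1* cKO mice it was 147, 163, 140 and 165 CPM under oil and 103, 132, 132 and 204 under tamoxifen. All 4 *Esr1* cKO mice given oil were above all wild-type mice, an order that 18 of the 12507 genes (0.144%) had and that was noticed after the values were seen, whereas 3 of the 4 given tamoxifen fell within the wild-type range. The means were 148 ± 29.9 and 96.1 ± 26.6 CPM (log2 0.69 ± 0.18). *Cish* was 0, 1.88 and 7.24 CPM in wild-type mice given oil and 4.66, 1.89, 1.82, 3.55 and 7.23 in those given tamoxifen, against 4.91, 10.2, 11.4 and 1.76 and 5.51, 9.61, 9.73 and 7.34 in *Esr1* cKO mice. The groups overlapped. *Cish* averaged 7.56 ± 3.29 CPM in *Esr1* cKO and 3.53 ± 2.66 in wild-type neurons (log2 1.09 ± 0.47), from 75 and 31 UMIs.

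The other members were close between genotypes in neurons. *Jak1*, *Jak2*, *Stat3* and *Stat5b* differed by −0.13 to 0.16 on the log2 scale, and all overlapped. *Stat5a* (3.07 ± 1.56 against 3.99 ± 2.77 CPM) and *Socs3* (6.55 ± 1.95 against 5.23 ± 3.13) were too low for the filter. As with *Socs2*, these values are a description, since they come from the contrast that *Socs2* was chosen on.

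**Figure D3:**
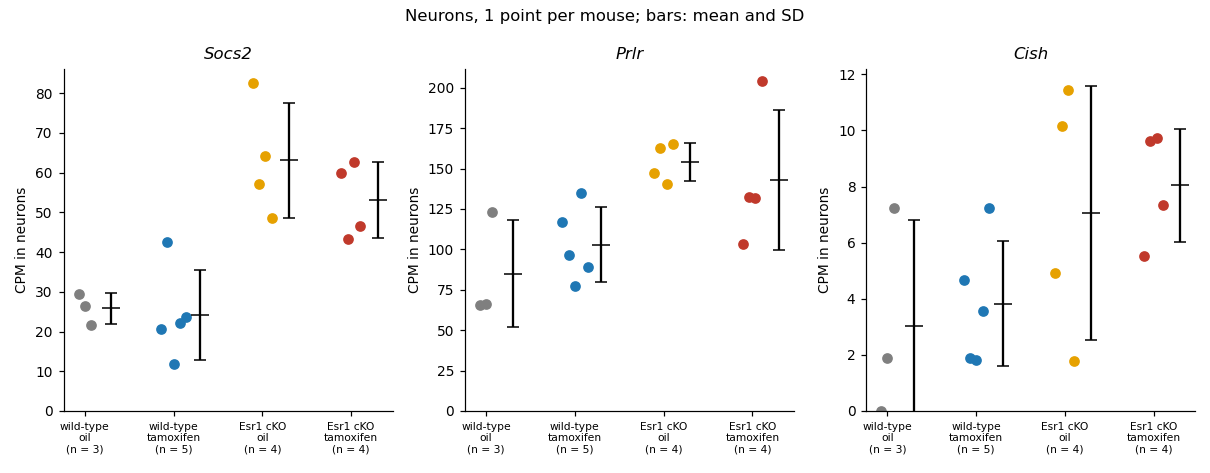
CPM of *Socs2*, *Prlr* and *Cish* in neurons (linear axes), with 1 point per mouse in the 4 groups and bars for the mean and SD (the lower bar of *Cish* in wild-type mice given oil is cut at 0). For *Socs2* all 8 *Esr1* cKO mice (43.3–82.7 CPM) lie above all 8 wild-type mice (11.8–42.6), whereas for *Prlr* and *Cish* the genotypes overlap.

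Neurons were also split by whether they held a *Prlr* UMI. Those with one had 38.5 ± 23.4 CPM of *Socs2* in wild-type mice (17.0 to 89.1, 475 neurons) and 125 ± 33.7 in *Esr1* cKO mice (82.4 to 168, 642 neurons; SD, n = 8 mice each). Neurons without one had 22.2 ± 10.47 CPM (10.8 to 44.7, 3987 neurons) and 37.9 ± 10.8 (29.6 to 62.0, 3694 neurons). The ranges overlapped in both kinds of neuron. This splits the contrast that *Socs2* was chosen on, so the values are a description and nothing is read from them. *Cish* was 5.89 ± 4.01 CPM in wild-type and 14.9 ± 10.8 in *Esr1* cKO neurons with a *Prlr* UMI, and 3.04 ± 2.67 and 5.24 ± 3.26 in those without.

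*Jak1* was close in all 4 sets, between 126 and 137 CPM. Neurons with a *Prlr* UMI were deeper (median 2703.0 UMIs for wild-type mice, 3214.5 for *Esr1* cKO mice) than those without (1234.0 and 1490.5). The sets were not matched for neuronal cluster. The *Tac2*-led cluster, where *Prlr* was high, had 33 wild-type and 73 *Esr1* cKO neurons. The parts of depth and of cluster make-up were not tested, nor was the difference between the 2 kinds of neuron.

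Across the neuronal clusters the *Socs2* levels by genotype were uneven. The values by cluster do not show the spread between mice, and as *Socs2* was chosen on this contrast they are a description. Pooled over mice, wild-type and *Esr1* cKO neurons had 19.7 and 92.2 CPM in the *Gal*-led cluster (19 and 111 UMIs), 9.21 and 55.1 in the *Hcrt*-led cluster (8 and 50) and 18.8 and 62.6 in the *Meis2*-led cluster (22 and 102). The *Tac2*-led cluster had 95.3 and 222 CPM (10 and 78 UMIs) with 33 wild-type and 73 *Esr1* cKO neurons, and the *Pomc*-led cluster 18.6 and 52.3.

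In the *Crym*-led cluster, with little *Prlr*, *Socs2* stood at 114 and 98.4 CPM, with overlapping Poisson intervals of 79.6–157 and 69.6–135. The *Agrp*-led cluster went the other way, at 161 and 20.5 CPM, on 13 and 3 UMIs, with intervals of 85.8–276 and 4.23–59.9 that did not overlap. *Prlr* in the *Gal*-led cluster was 243 CPM in wild-type and 365 in *Esr1* cKO neurons, and in the *Tac2*-led cluster 620 and 633. In the *Hcrt*-led cluster it was 93.2 and 162, and in the *Pomc*-led cluster 98.1 and 83.0. The plot by neuronal cluster gives both genes.

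**Figure D4:**
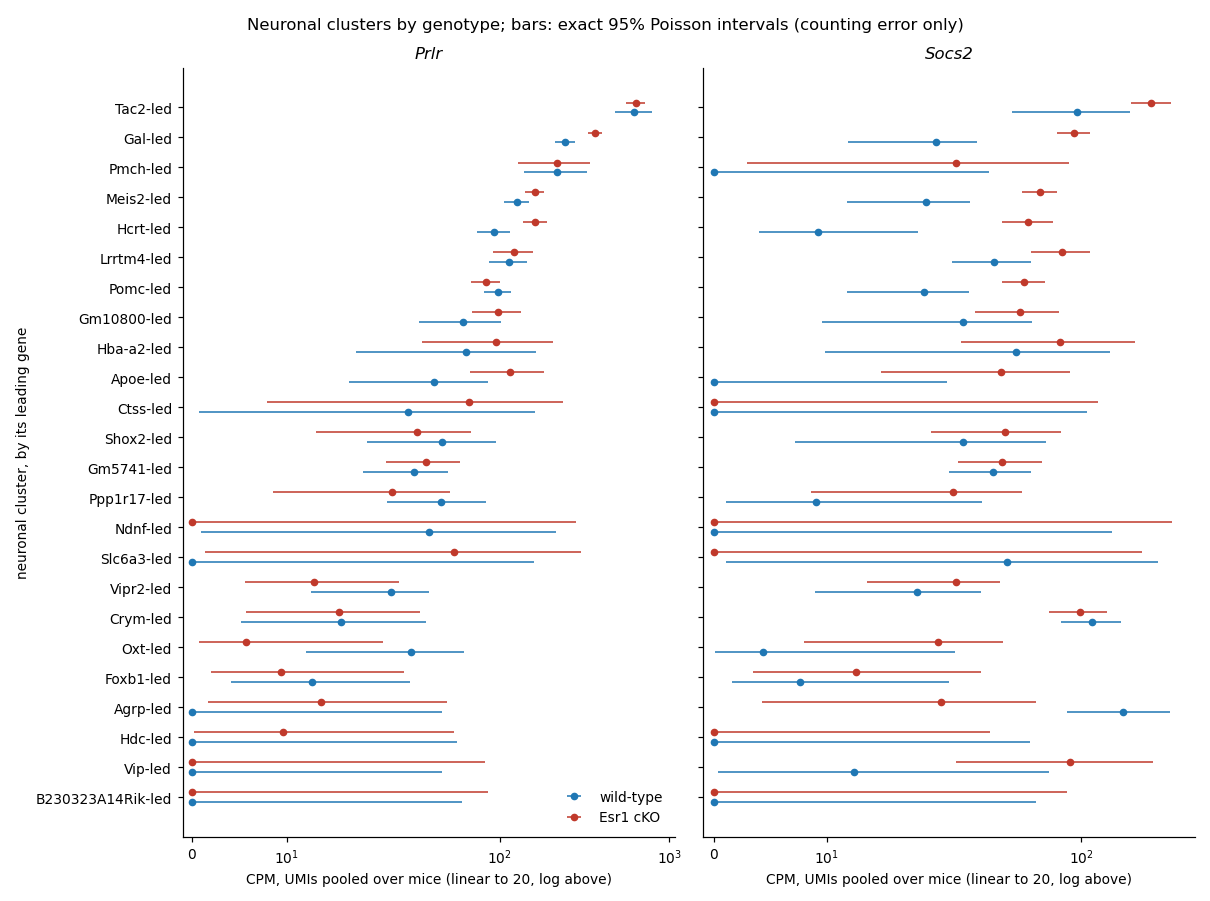
CPM of *Prlr* (left) and *Socs2* (right) in neuronal clusters, UMIs pooled over mice, wild-type blue and *Esr1* cKO red, with exact 95% Poisson intervals that cover counting error only (axis linear to 20 CPM, logarithmic above). The *Socs2* intervals lie apart in the *Gal*-, *Hcrt*-, *Meis2*-, *Pomc*- and *Tac2*-led clusters, with *Esr1* cKO higher. They also lie apart in the *Agrp*-led cluster, with wild-type higher (161 and 20.5 CPM), and overlap in the *Crym*-led one (114 and 98.4 CPM). *Socs2* was chosen on this contrast, so nothing is read from the intervals.

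Outside neurons, where the genotype contrast was not used to choose any member, none of 33 tests of the 9 genes was called (edgeR, and none with DESeq2), and 0.0% of all 51007 tests was. Of the 33, 1 had an unadjusted p under 0.05 (edgeR), against 3.54% of the genotype tests of all genes with neurons included. *Socs2* in endothelial cells, the type with most of it outside neurons, was 60.1, 103 and 86.5 CPM in wild-type mice given oil and 89.0, 77.6, 112, 78.1 and 90.0 in those given tamoxifen. It was 113, 49.1, 54.4 and 97.1 in *Esr1* cKO mice given oil and 56.8, 80.1, 69.6 and 85.0 in those given tamoxifen. The genotypes overlapped (log2 −0.23 ± 0.18, adjusted p = 1.0, and −0.24 ± 0.22 without the *Gkn3*- and *Hba-a2*-led clusters).

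To ask whether tamoxifen altered these genes, tamoxifen was compared with oil within each genotype. None of the 40 tests in wild-type mice and none of the 40 in *Esr1* cKO mice was called, nor did any of 40 interaction tests show that the effect differed by genotype (edgeR, and none with DESeq2). The background was the same, at 0.0% of 63311 tests in wild-type mice, 0.0% in *Esr1* cKO mice and 0.0% for the interaction. Of the 40 tests of these genes in each comparison, 3, 0 and 1 had an unadjusted p under 0.05 (edgeR). Over all genes 3.22%, 3.73% and 4.68% of tests did. The 40 fold changes ran from −0.95 to 0.84 in wild-type and from −0.70 to 0.86 in *Esr1* cKO mice, with a median SE of 0.31 and 0.28.

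In neurons the log2 fold change of *Prlr* with tamoxifen was 0.26 ± 0.26 (wild-type mice) and −0.12 ± 0.24 (*Esr1* cKO mice), and that of *Socs2* was −0.09 ± 0.32 and −0.23 ± 0.26. For *Cish* it was 0.18 ± 0.76 and 0.16 ± 0.57. None of these passed the test.

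The 3 lowest unadjusted p-values in wild-type mice belonged to endothelial and ependymal cells. *Socs3* in endothelial cells was 263, 124 and 148 CPM under oil and 99.7, 118, 96.5, 96.5 and 112 under tamoxifen, so every tamoxifen-treated mouse was below every oil-treated one, as for 178 of 9424 endothelial genes with at least 100 UMIs (1.89%) (log2 −0.69 ± 0.27, edgeR unadjusted p = 0.0196, adjusted p = 0.9996). *Stat3* in ependymal cells was 65.3, 72.3 and 31.96 CPM under oil and 172, 92.5, 92.8, 64.5 and 84.3 under tamoxifen, with overlap (log2 0.84 ± 0.34, edgeR unadjusted p = 0.0227, adjusted p = 0.9996). *Jak1* in ependymal cells was 124, 137 and 103 CPM under oil and 136, 63.6, 68.6, 93.5 and 60.7 under tamoxifen, with overlap (log2 −0.57 ± 0.27, edgeR unadjusted p = 0.0452, adjusted p = 0.9996). These 3 were picked for their p among 40 tests. In *Esr1* cKO mice the same 3 changes were −0.23 ± 0.26, −0.22 ± 0.32 and 0.19 ± 0.28. Without the clusters led by another type's markers, *Socs3* in endothelial cells was 273, 72.3 and 93.1 CPM under oil and 71.7, 77.5, 61.4, 86.7 and 93.0 under tamoxifen, which overlap (log2 −0.65 ± 0.36, edgeR unadjusted p = 0.0816, adjusted p = 0.9998). The ependymal changes were then 0.67 ± 0.47 for *Stat3* and −0.58 ± 0.34 for *Jak1*.

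*Socs3* had a negative fold change with tamoxifen in all 6 types tested in wild-type mice (−0.34 to −0.95) and in 3 of 6 in *Esr1* cKO mice, where fibroblasts (0.72), mural cells (0.08) and microglia (0.03) had positive values. None of these passed the test, and the types share their mice. Of the 3 wild-type mice given oil, replicate 1 had the highest *Socs3* in all 6 types. In fibroblasts it had 972 CPM, against 445 and 555 in the other mice given oil. The part of this mouse in the shared sign was not tested. Without the clusters led by another type's markers, the ependymal change in wild-type mice was −0.04 ± 0.56 in place of −0.95.

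**Figure D5:**
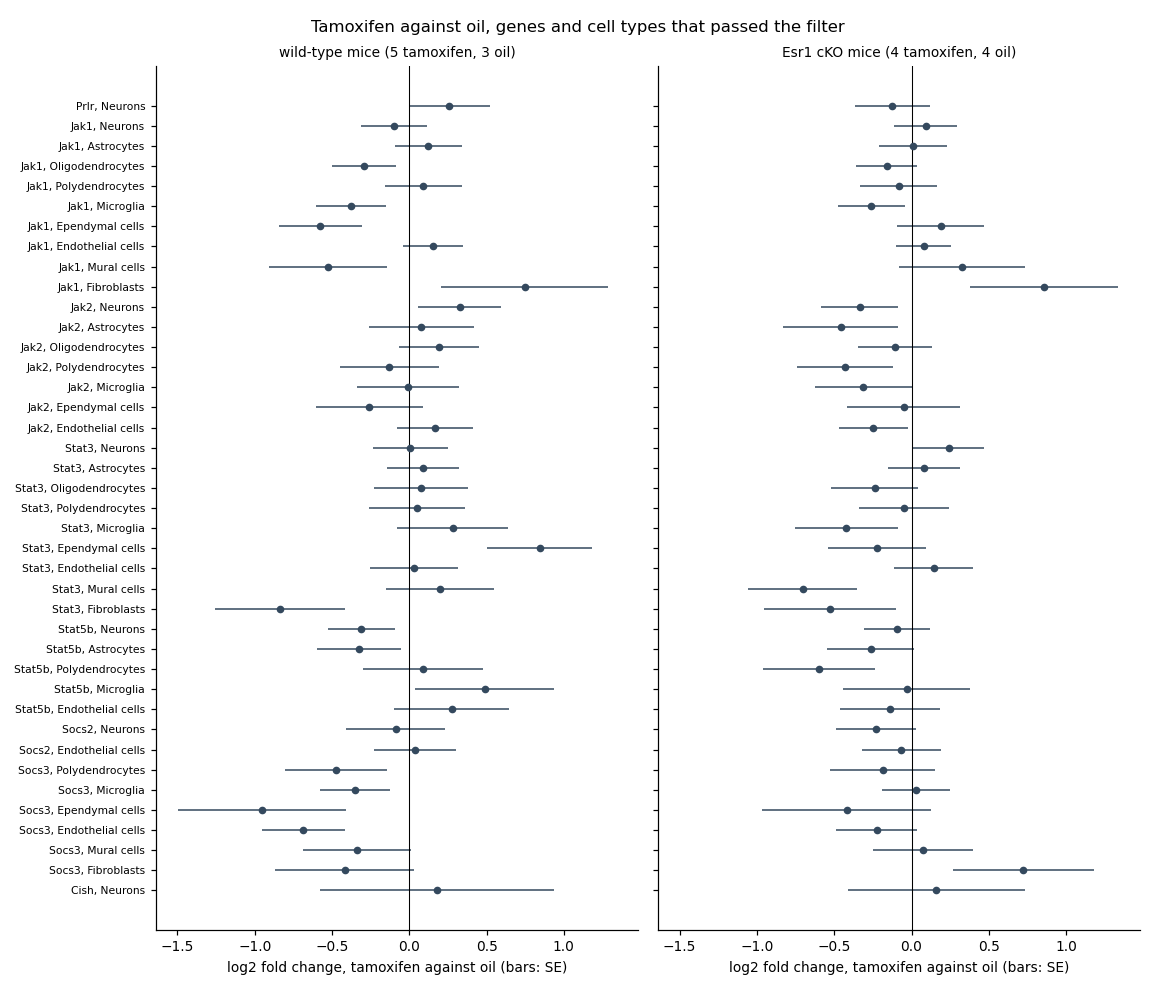
Log2 fold change of tamoxifen against oil for the 40 gene and cell type pairs that passed the filter, in wild-type mice (left) and *Esr1* cKO mice (right), with bars for the SE from edgeR. No change passed the test in either genotype, and values lie between −0.95 and 0.86.

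In the other pathway genes none of 208 tests of tamoxifen in wild-type mice, 208 in *Esr1* cKO mice, 208 interactions and 174 tests of genotype outside neurons was called, with 9, 9, 11 and 6 at an unadjusted p under 0.05 (edgeR, and none with DESeq2). Over all genes 3.22%, 3.73%, 4.68% and 3.54% of tests had such a p, the last with neurons included.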

How the data were processed

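Single-cell RNA was measured by Drop-seq in hypothalamus and preoptic area of 16 mice. The deposited matrices hold raw counts, whole UMIs per gene and barcode, which the authors had not normalized. The submitters' processing notes name STAR 2.6, Seurat 3.6.1 and the build mm10. The annotation was not given in the sources used here. As in the study's methods, a cell was kept if it had over 200 and under 4000 genes and a mitochondrial share under 15%, and kept UMIs per library ran from 1717573 to 5457033. Barcodes found in more than 1 library were left out after the files were seen. Doublets (476 called by Scrublet in scanpy 1.11.5, at a rate of 0.05) were kept and removed in an alternative.

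Cells were clustered in Seurat 5.3.0 (2000 variable genes, 30 anchor dimensions, 20 principal components, resolution 0.05 for types and 0.5 for finer clusters; neurons 500 genes, resolution 0.7), and named from at least 3 marker genes. Tanycytes stayed within the ependymal class, perivascular macrophages within microglia, and clusters with mural and red blood cell genes within endothelial cells. The 5 finer clusters with more markers of another list than of their own class among 10 leading genes were left out in an alternative. A cluster of 208 cells led by *Bpifa1* was left out throughout. Type boundaries come from the same cells as the levels.

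UMIs were summed per library and type (at least 10 cells, or 3 neurons per cluster) and tested with edgeR 4.0.16 (R 4.3.3), quasi-likelihood, TMM, filterByExpr, Benjamini-Hochberg over all genes of a fit, threshold 0.05. Type and cluster tests had the library as a block. Treatment and genotype were fitted over the 4 groups. SE is the log2 fold change divided by the root of the F statistic. DESeq2 1.42.0, other filters and left-out libraries were alternatives, and the fits were tested on simulated data. CPM are per 1000000 UMIs of the type in a library. The p-values of treatment and genotype measure the spread of levels between mice, 1 library each. Those of type and cluster tests measure how the difference within a library varies between mice.

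The 9 genes, the 61 pathway genes, the marker lists and the tests were chosen with earlier results of these data known. Genes named besides the 9 were *Prl* and *Gh*, the 3 pathway genes per role with the largest change past the threshold, the 3 nearest genes in pattern (at least 100 UMIs), cluster-leading genes and *Esr1*. Exceptions are marked where they occur. Promoter windows are from RefSeq (GRCm38.p6). Results for 1 neuronal cluster and 1 pathway gene are not reported here by name, though they are counted in the totals.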

Additional observations from a re-analysis of the deposited data

Results flagged for a closer look

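Of 36 groups of 4 or 5 mice examined for a value far from the others (chance gives about 1 in 20), 3 had one, all for *Prlr* in ependymal cells. Wild-type tamoxifen replicate 2 stood at 278 CPM, against 6.74 to 14.1 in the other 4 mice of its group. *Esr1* cKO tamoxifen replicate 4 had 7.26 CPM, where the other 3 mice had 0. *Esr1* cKO oil replicate 2 had 6.07 CPM, against 8.44 to 8.91 in its group. The last 2 values are 3 UMIs, against 0 in the rest of the group, and 1 UMI, against 1, 4 and 2. The measure always marks a value that alone is above 0 in its group. The 3 of 36 can therefore not be set against 1 in 20.

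A cluster of 208 cells led by *Bpifa1*, left out of all comparisons, held *Socs2* at 185 CPM (50 UMIs in 12 libraries, exact Poisson 95% interval 137–244) against 31.1 in all other clusters pooled. It also held *Cish* at 51.8 CPM (14 UMIs in 7 libraries, interval 28.3–87.0) against 3.08. Both were above the pooled level of the other clusters and above the highest other finer cluster (*Socs2* 102 CPM, *Crym*-led, and *Cish* 7.21 CPM, *Dcn*-led). The *Bpifa1*-led cluster carried 5 of the 6 listed markers of the pars tuberalis. These values were not tested across mice.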

How the results depend on the processing

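Of 86 single calls by cell type or neuronal cluster, 55 kept direction and side of the threshold under every alternative run for them, and 31 were lost or reversed under at least 1. Of these, 3 changed sign: *Stat3* in mural cells with a mitochondrial share under 5% (log2 −0.048), *Socs2* in neurons with wild-type libraries alone (−0.11) and *Socs3* in ependymal cells without the clusters led by another type's markers (−0.57). The cause was not tested. The 53 type calls numbered 49 to 53 with 1 library left out, 40 to 56 over all alternatives, 52 with shared barcodes kept and 51 without the clusters led by another type's markers, both chosen after seeing the data. The latter also ended the calls of *Jak1* and *Stat5b* in endothelial cells and of *Socs2* in ependymal and mural cells. Leaving out single libraries ended the calls of *Socs2* in microglia (*Esr1* cKO oil replicates 1 to 4 and tamoxifen replicates 3 and 4, wild-type oil replicate 2 and tamoxifen replicates 2 to 4, each in turn), *Jak2* in polydendrocytes (*Esr1* cKO oil replicates 1 to 4 and tamoxifen replicate 2, wild-type oil replicate 2 and tamoxifen replicates 3 and 4), *Stat5b* in astrocytes (*Esr1* cKO oil replicate 3), endothelial cells (*Esr1* cKO tamoxifen replicate 2) and ependymal cells (*Esr1* cKO oil replicate 3, wild-type oil replicate 3), *Jak1* in mural cells (wild-type oil replicate 3) and *Socs2* in mural cells (wild-type tamoxifen replicate 3). The 33 calls by neuronal cluster had only 1 or 2 alternatives each, against 27 or 28 for the type calls, and mice were not left out in turn. Of the cluster calls 22 were unchanged, against 33 of the 53 type calls. Calls by neuronal cluster numbered 24 to 33. The tamoxifen, interaction and genotype tests gave 0 calls under each alternative, left-out libraries included (0 to 0), except 1 in wild-type mice with no filter on low counts (*Prlr* in ependymal cells, log2 2.88). That call includes wild-type tamoxifen replicate 2, where 46 of 48 ependymal *Prlr* UMIs lay in 10 cells rich in choroid plexus genes. The rest of its group had 6.74 to 14.1 CPM, against 19.6, 8.04 and 2.91 in wild-type mice given oil. The neuronal *Socs2* difference between genotypes was 1.19 to 1.42 with 1 library left out. Thinning to 500 UMIs moved the share of neurons with a *Prlr* UMI to 5.03%. With log2(CPM + 1), 7 of the 12 nearest genes remained, and *Htr2c*, *Chrnb4*, *Wee1*, *Gm9844* and *Lrba* were not among the 3 nearest. No paired analysis was possible because the labels give neither replicate numbers nor days. The study's methods have the 4 groups handled in parallel, 4 mice a day, and 3 of the 4 fours of successive library numbers hold 1 mouse of each group. These fours as a block gave 0 calls in each treatment and genotype contrast, and a *Socs2* difference of 1.31. Depth limits *Stat5a* and *Cish*, which passed the filter in no type against the rest.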
